A study of Canis lupus familiaris with 77 samples.

Results

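The miR-15, miR-16 and miR-195 family was followed as 6 miRNAs across the dog tissue atlas: cfa-miR-15a, cfa-miR-15b, cfa-miR-16, rno-miR-16-3p, cfa-miR-195 and cfa-miR-497, called below without the prefix for the species of the annotation. They were taken by name, as the rows of the deposited table whose first name was one of these 6, out of 650 miRNAs with at least 1 read. The study sequenced small RNA (miR-seq) from 16 tissues of untreated male Beagle dogs that were 10 months of age and, per the study's methods, were perfused with phosphate buffered saline before the organs were taken. There were 5 samples each of plasma, bone marrow, thymus, lung, liver, pancreas, kidney, duodenum, jejunum, ileum, heart, skeletal muscle, testis and brain, 4 of colon and 2 of sciatic nerve, 76 libraries in all. All groups share the strain, sex and lack of treatment and differ by tissue. Plasma and bone marrow RNA was extracted by protocols of their own, so the protocol and the tissue cannot be told apart there. The study also reports low RNA integrity in plasma, in bone marrow and in a subset of kidney samples. The part of RNA integrity in the levels here was not tested. The study describes the sciatic nerve samples in more than one way, so it is not settled that these 2 come from separate dogs. Per the study's methods the tissues came from 5 dogs, so libraries of different tissues share animals. The labels give no dog number, so the tests treat the libraries as independent, and p-values measure the spread between these samples.

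A miRNA is a short RNA that pairs with messenger RNAs, mainly through its seed near the 5′ end, and lowers their translation and stability. The mature 5p strands of miR-15a, miR-15b, miR-16, miR-195 and miR-497 share a seed and are known for restraining genes of the cell cycle and of survival, such as cyclins and BCL2. They come from clusters: miR-15a lies beside a copy of the miR-16 gene, miR-15b beside another copy, and miR-195 beside miR-497. In the dog gene table of assembly UU_Cfam_GSD_1.0 the gaps were 82 bases between MIR15A and MIR16-1, 85 bases between MIR15B and MIR16-2, and 260 bases between MIR195 and MIR497. Because 2 genes give the same mature miR-16, its reads cannot be divided between them. The passenger strand miR-16-3p comes from the other arm of the hairpin, does not share the seed, and was counted under its rat name, so it is not assigned to either gene here. miR-16 is abundant in blood cells and is widely used as a reference miRNA.

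Levels are given in RPM, the reads of a miRNA scaled to 1000000 reads on miRNAs per library. The libraries had from 157871 to 7896424 such reads, so that a count of 0 allows up to 3 reads, or from 0.380 RPM in the deepest library to 19.0 RPM in the shallowest, for counting error only. In 9 libraries the summed markers of the labelled tissue were under 20% of the highest library of that tissue. These were thymus replicates 2, 3 and 5, duodenum replicates 3, 4 and 5, testis replicates 2 and 3 and skeletal muscle replicate 4. Lung had no marker list of its own, so its libraries were not checked in this way. Plasma and bone marrow were checked with the erythroid list given below only. Every call reported below for a tissue against the mean of the others was kept without these 9 libraries, and the values without them are given for thymus, duodenum, testis and skeletal muscle. In plasma a single miRNA, miR-486, took from 42.3% to 76.1% of the reads, which lowers the RPM of all other miRNAs there.

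All 5 miRNAs that share the seed had reads in every library, and miR-16-3p had reads in 66 of 76. miR-16 was the bulk of the family: it held from 64.1% of the reads of these 5 miRNAs in lung replicate 5 to 92.4% in plasma replicate 5, with a median of 81.7%. How efficiently each miRNA is captured was not tested, so such shares compare reads, not molecules. Together the 5 took a median of 4.09% of miRNA reads in plasma, 1.87% in bone marrow, 1.52% in lung and 1.40% in ileum, and the lowest median was 0.293% in kidney. Skeletal muscle replicate 5 had the lowest share of any library, 0.150%.

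**Figure D1:**
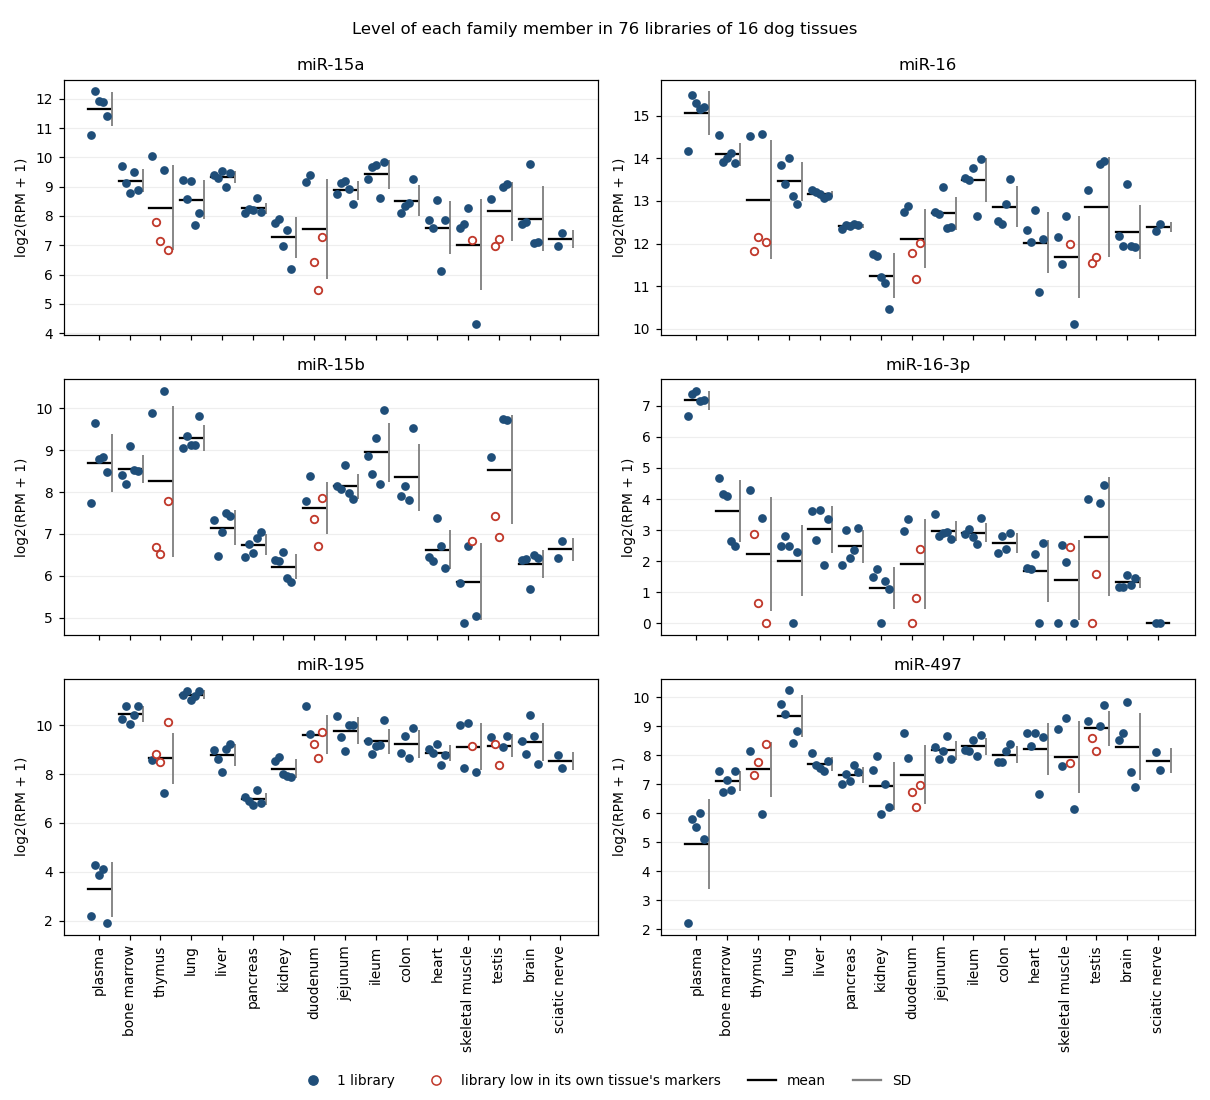
Level of each member, as log2(RPM + 1), in every library of 16 tissues, with the mean (black line) and the SD (grey bar). Open red circles are the 9 libraries low in the markers of their own tissue. miR-15a, miR-16 and miR-16-3p have their highest means in plasma, where miR-195 and miR-497 have their lowest, and miR-195 and miR-497 have their highest means in lung.

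The first question of a tissue atlas is where each miRNA is most abundant, and for miR-16 this was plasma. cfa-miR-16 read 18531, 45944, 39860, 36269 and 37816 RPM in the 5 plasma libraries and 23769, 15392, 16495, 17953 and 15042 RPM in bone marrow. Plasma replicate 1 lay inside the bone marrow range and the other 4 lay above it. The lowest median was in kidney, with 3487, 3356, 2393, 2163 and 1407 RPM. The median of plasma was 15.8-fold that of kidney. Its mean in log2(RPM + 1) was 15.06 ± 0.51 (SD, n = 5) in plasma, 14.09 ± 0.27 (n = 5) in bone marrow, 13.49 ± 0.51 (n = 5) in ileum and 13.46 ± 0.46 (n = 5) in lung. Pancreas ran from 5150 to 5613 RPM and liver from 8570 to 9706 RPM, and among tissues with 5 libraries these had the smallest SD in log2.

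miR-15a was also highest in plasma, at a lower level than miR-16. In plasma cfa-miR-15a read 1754, 4900, 3903, 3790 and 2729 RPM, and its ileum libraries read 617, 809, 850, 393 and 919 RPM. No plasma library overlapped ileum, which came next by mean, and the median of plasma was 25.5-fold that of sciatic nerve, where the values were 126 and 172 RPM. Liver was tight at 681, 627, 739, 502 and 699 RPM. Skeletal muscle replicate 5 was the lowest library, at 19.0 RPM from 6 reads.

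miR-15b, the partner of the other copy of the miR-16 gene, did not have its highest mean in plasma. For cfa-miR-15b, lung came first with 527, 648, 558, 555 and 900 RPM, then ileum with 462, 346, 630, 291 and 989 RPM, and plasma with 211, 797, 444, 459 and 358 RPM. Those ranges overlap. Skeletal muscle had the lowest median, 56.1 RPM, and the 5 brain libraries read 82.7, 83.0, 50.6, 88.8 and 85.6 RPM. The median of lung was 9.94-fold that of skeletal muscle. The highest single library was thymus replicate 4, at 1365 RPM.

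miR-16-3p, the passenger strand, was low outside plasma. It read 102, 166, 176, 141 and 145 RPM in plasma, from 28, 294, 244, 220 and 210 reads, and 24.6, 16.7, 16.2, 5.29 and 4.60 RPM in bone marrow, from 4, 4, 3, 1 and 1 reads. Every plasma library was above every library of another tissue. Both sciatic nerve libraries were at 0 reads. Plasma was the 1 tissue in which its median passed 100 RPM, the limit for high expression.

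The miR-195 and miR-497 pair had its lowest means in plasma and its highest in lung. cfa-miR-195 read 2396, 2713, 2058, 2309 and 2727 RPM in lung, above every library of another tissue, and 1220, 1774, 1065, 1349 and 1775 RPM in bone marrow. In pancreas it was at 133, 118, 105, 163 and 111 RPM. The lowest were the plasma libraries, with 3.64, 18.7, 13.7, 16.6 and 2.77 RPM from 1, 33, 19, 26 and 4 reads. The median of lung was 175-fold that of plasma.

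cfa-miR-497 read 867, 682, 1196, 339 and 455 RPM in lung and 573, 383, 281, 505 and 836 RPM in testis. Those ranges overlap. It was lowest in plasma too, with 3.64, 54.9, 45.4, 63.9 and 33.2 RPM from 1, 97, 63, 100 and 48 reads. Bone marrow, second highest for miR-195, was below all but kidney and plasma for miR-497 by mean, at 173, 105, 141, 111 and 175 RPM. Kidney overlapped plasma, with 179, 248, 61.7, 127 and 73.7 RPM.

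Few steps in the order of tissues passed a test of neighbours, and that test had little room to pass any. For each member the 16 tissues were ordered by mean log2(RPM + 1) and each tissue was compared with the next by a two-sided exact permutation test. The smallest p of this exact permutation test with 5 libraries against 5 is 0.00794. If only 1 of the 15 pairs of a member reaches it, the adjusted p is 0.119 (exact permutation test). Such a pair could not pass, however far apart its tissues are. Of 90 neighbouring pairs over the 6 members, 9 had an unadjusted p under 0.05 and 3 passed after Benjamini-Hochberg adjustment over the 15 pairs of a member. All 3 belong to miR-195: lung above bone marrow by 0.79 in log2, kidney above pancreas by 1.24 and pancreas above plasma by 3.69 (adjusted p = 0.0397 for each, exact permutation test). The number of pairs that passed was 0 with library sizes scaled by TMM, 0 with adjustment over all 90 pairs, 0 without the 9 libraries low in their own markers, and 0 without lung replicate 2 or lung replicate 5. All 3 pairs had the smallest possible p, so the adjusted p of each depends on the others being in the list. None of the 9 libraries is from a tissue of these 3 pairs, so the 0 without them says little about separation. Adjustment over 90 pairs is stricter still, so its 0 says little about separation either. For miR-15a, plasma stood 2.23 above ileum in log2 without overlap (p = 0.00794, exact permutation test, adjusted p = 0.119). For miR-16-3p, plasma stood 3.56 above bone marrow without overlap (p = 0.00794, exact permutation test, adjusted p = 0.119).

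The comparison of each tissue with the mean of the other 15 asked which tissues set a member apart. It was fitted with edgeR's quasi-likelihood test on the counts of all 76 libraries, and 480 miRNAs passed the filter on low counts, all 6 members among them. miR-16-3p is left out of these contrasts because sciatic nerve has 0 reads for it, and the mean of the others then has no usable error. Over the other 5 members and 16 tissues, 80 pairs, 19 were higher and 14 lower at an adjusted p under 0.05. Over all miRNAs and tissues 24.6% of tests were higher and 14.3% lower, so that the members' shares are near this background. Of all calls in the main fit 63.1% were higher, and with DESeq2's test 51.8%. Scaling moved the median of all miRNAs by over 0.1 in log2 in all 16 contrasts, and in brain from 0.13 with TMM to 1.22 with library size only. Of the called pairs, 14 higher and 8 lower kept their call under all 4 scalings tried. In bulk samples fewer cells of a type and less RNA per cell cannot be told apart.

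**Figure D2:**
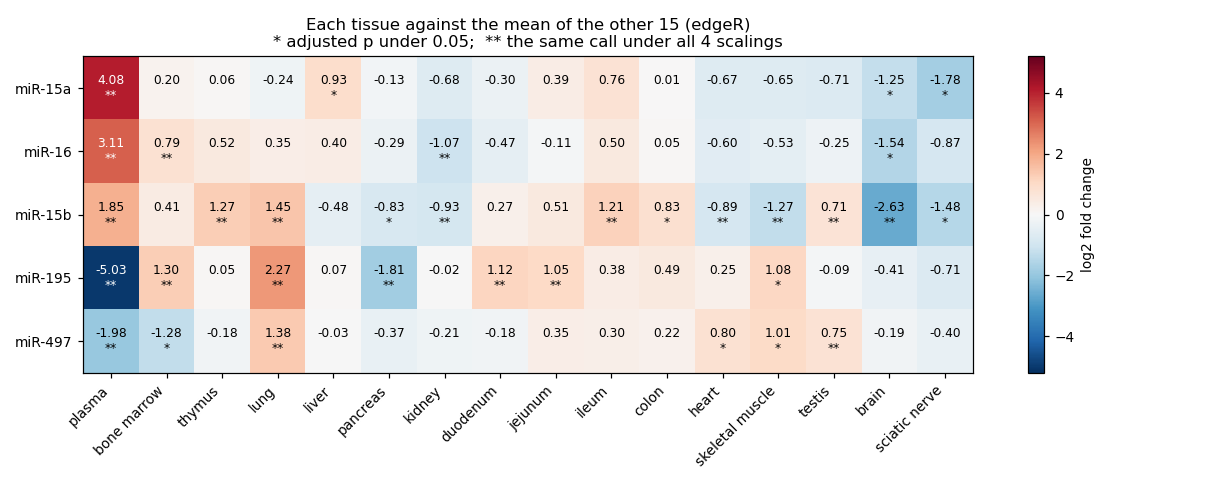
Log2 fold change of 5 members in each tissue against the mean of the other 15, from edgeR. One asterisk marks an adjusted p under 0.05 and a pair of asterisks the same call under all 4 scalings. Plasma holds the 2 largest rises (4.08 for miR-15a and 3.11 for miR-16) and the largest fall (-5.03 for miR-195).

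Plasma was the 1 tissue in which all 5 of these members were called. miR-15a was higher by 4.08 ± 0.24 (log2 fold change ± SE, n = 5, edgeR adjusted p = 9.56e-25), miR-16 by 3.11 ± 0.19 (adjusted p = 1.86e-23) and miR-15b by 1.85 ± 0.24 (adjusted p = 3.05e-10). miR-195 was at -5.03 ± 0.41 (edgeR adjusted p = 1.08e-17) and miR-497 at -1.98 ± 0.36 (adjusted p = 3.03e-06). In plasma 27.9% of the 480 miRNAs tested were higher and 24.8% lower, with a median over all of -0.59. All 5 calls held under the 4 scalings, the DESeq2 test, the fit without the 9 low libraries and every fit with 1 library left out. The 4 miRNAs of the erythroid list, miR-451, miR-486 and both arms of miR-144, summed to between 545235 and 816358 RPM in plasma and between 84257 and 146066 RPM in bone marrow. The same list summed to between 100037 and 274996 RPM in heart and between 48512 and 171943 RPM in skeletal muscle. A sum at the level of bone marrow is therefore not particular to blood. The endothelial miR-126 ran from 1645 to 15785 RPM in plasma and from 40874 to 64176 RPM in lung, and the smooth muscle miRNAs miR-143 and miR-145 together from 498 to 2206 RPM in plasma and from 112635 to 156242 RPM in lung. The part of these cell types in the levels of the family was not tested.

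By the atlas' own measure, a tissue-enriched miRNA has a mean RPM over 5-fold the mean of all other samples and an adjusted p under 0.05 from an exact rank-sum test. Of the 6 members, 2 met it, both in plasma, where 6.32% of the 443 miRNAs detected did (4.91% over all tissues). miR-16-3p was 26.7-fold and miR-15a 8.79-fold higher (adjusted p = 2.09e-06 for each, exact rank-sum test). miR-16 was 4.45-fold higher (adjusted p = 9.59e-06, exact rank-sum test), short of the 5-fold limit. It passed with TMM-scaled libraries (7.86-fold), with the fold taken between medians (6.36-fold) and, in an alternative added after the data were seen, with miR-486 left out of the totals (10.1-fold). miR-16-3p also had a plasma median 5.89-fold the highest library of any other tissue, past the limit of 5 for high enrichment, while miR-15a reached 3.57. miR-195 in lung came to 4.12-fold (adjusted p = 1.28e-05, exact rank-sum test).

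Plasma and bone marrow both hold RNA of the blood lineage, and most members differed between them. miR-16-3p was higher in plasma by 4.64 ± 0.62 (log2 fold change ± SE, edgeR adjusted p = 2.85e-09), miR-15a by 3.64 ± 0.52 (adjusted p = 1.76e-08), miR-16 by 2.18 ± 0.37 (adjusted p = 1.31e-06) and miR-15b by 1.34 ± 0.39 (adjusted p = 0.00341). miR-195 was lower, at -5.93 ± 0.46 (edgeR adjusted p = 5.00e-18), and miR-497 was at -0.66 and did not pass. That makes 4 members higher and 1 lower, where 26.5% of the 480 miRNAs were higher and 16.7% lower. With 1 library left out, miR-15b kept its call in only 31 of 76 fits. In 32 of the 76 fits 1 member was lower, and in the rest 2 were, with miR-497 as the second. Part of this depended on the scaling. By library size only, miR-15b stood at 0.25 and miR-16 at 1.00 and neither passed. The fold of miR-497 followed the library that TMM took as its reference: it lay between -0.66 and -0.44 in 26 fits with colon replicate 3, the fit reported among them, and between -1.35 and -1.11 in 45 fits with thymus replicate 4. In those 45 fits miR-15b did not pass, and its value ranged from 0.69 to 1.73 over all fits with 1 library left out. A relative of the family from the miR-424 and miR-503 cluster was also low in plasma. The 5p arm of miR-424, hsa-miR-424-5p, read 0, 21.5, 3.60, 8.30 and 2.07 RPM there and 444, 264, 303, 508 and 285 RPM in bone marrow.

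In lung both miR-195 and miR-497 were higher, and so was miR-15b, which was also higher in plasma. miR-195 was higher in lung by 2.27 ± 0.21 (log2 fold change ± SE, n = 5, edgeR adjusted p = 3.96e-14), miR-15b by 1.45 ± 0.24 (adjusted p = 1.90e-06) and miR-497 by 1.38 ± 0.26 (adjusted p = 1.71e-05), 3 of 5 where 20.6% of the 480 miRNAs were higher. Those calls held under all 4 scalings and every left-out library. miR-15a stood at -0.24 and miR-16 at 0.35 in lung and did not pass.

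Bone marrow set the pair apart from each other. miR-195 was higher by 1.30 ± 0.23 (log2 fold change ± SE, n = 5, edgeR adjusted p = 3.18e-06) and miR-16 by 0.79 ± 0.24 (adjusted p = 0.00538), 2 of 5 where 16.5% of the 480 miRNAs were higher, while miR-497 was lower at -1.28 ± 0.35 (adjusted p = 0.00180), 1 of 5 where 24.6% were lower. The median of all miRNAs in that contrast was -0.97. The call of miR-497 was lost by library size only and in 43 of the 76 fits with 1 library left out. That of miR-16, which ranged from 0.61 to 1.32 in these fits, was lost without ileum replicate 5 (0.65), plasma replicate 3 (0.66) or skeletal muscle replicate 2 (0.65). In those 3 fits TMM took sciatic nerve replicate 1 as its reference, and the reference changed among the 76 fits. Its part in the lost calls was not tested. Pancreas was lower in miR-195, by -1.81 ± 0.31 (edgeR adjusted p = 2.17e-06), under all scalings, 1 of the 2 members lower there, where 19.2% of miRNAs were lower.

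The brain was lower in the other clusters. miR-15b was at -2.63 ± 0.36 (log2 fold change ± SE, n = 5, edgeR adjusted p = 1.12e-09), miR-16 at -1.54 ± 0.30 (adjusted p = 6.60e-06) and miR-15a at -1.25 ± 0.38 (adjusted p = 0.00282), 3 of 5 where 28.1% of miRNAs were lower. By library size only, miR-15b was still lower at -1.56, and miR-16 at -0.55 and miR-15a at -0.33 did not pass. miR-15a was not called with DESeq2 size factors (-0.64), with the DESeq2 test (-0.64) or with miR-486 left out of the library sizes (-0.41) either, and its value was -2.35 without brain replicate 3, the library with the highest level of miR-15a in brain. In kidney miR-16 was lower by -1.07 ± 0.29 (edgeR adjusted p = 0.00188) and miR-15b by -0.93 ± 0.31 (adjusted p = 0.0137), 2 of 5 where 10.2% were lower. The latter was lost without ileum replicate 5 (-0.80), plasma replicate 3 (-0.81) or skeletal muscle replicate 2 (-0.83). Those are the 3 fits in which TMM took sciatic nerve replicate 1 as its reference.

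miR-15b was the member with calls in most tissues, higher in 6 and lower in 6. Beside plasma and lung it was higher in ileum by 1.21 ± 0.25 (log2 fold change ± SE, edgeR adjusted p = 7.71e-05) and in thymus by 1.27 ± 0.25 (adjusted p = 4.04e-05). It was also called higher in colon (0.83) and testis (0.71). As the 1 member of 5 called in ileum, thymus and colon, it compares with 19.0%, 21.2% and 18.5% of miRNAs higher there. The call in thymus was lost without thymus replicate 4 (0.51), its highest library, and the call in colon without colon replicate 5 (0.59). It was lower in skeletal muscle by -1.27 ± 0.33 (edgeR adjusted p = 0.00114), in sciatic nerve (-1.48), in heart (-0.89) and in pancreas (-0.83). In these tissues 16.5%, 14.4%, 17.3% and 19.2% of miRNAs were lower. The calls in colon, sciatic nerve and pancreas were lost under at least 1 scaling. Calls of miR-15b were also lost in fits with 1 library left out. These were 8 in testis, lowest without testis replicate 4 (0.37), and 6 in pancreas, where the value reached -0.49. There were 5 in heart and 2 in sciatic nerve, 1 for each of its libraries. In testis, pancreas and heart they include the 3 fits in which TMM took sciatic nerve replicate 1 as its reference.

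miR-195 was higher in duodenum by 1.12 ± 0.24 (edgeR adjusted p = 1.41e-04) and in jejunum by 1.05 ± 0.24 (adjusted p = 2.67e-04), the 1 member called in each, where 21.0% and 27.3% of miRNAs were higher. Without the libraries low in their own markers the value in duodenum was 1.42. In skeletal muscle miR-195 was at 1.08 and miR-497 at 1.01, both called with TMM, where 26.5% of miRNAs were higher, and neither by library size only (0.50 and 0.44). Without the libraries low in their own markers they were at 1.26 and 1.15. Without skeletal muscle replicate 1 miR-195 was at 0.71 and still called. The call of miR-497 was lost without skeletal muscle replicate 1 (0.66) or replicate 3 (0.60). miR-497 was also called in heart (0.80) and testis (0.75), where 21.9% and 34.0% of miRNAs were higher. These calls were lost in 45 and 46 of the 76 fits with 1 library left out. The lowest values came without heart replicate 1 (0.36) and testis replicate 5 (0.45). The TMM reference also changed among the 76 fits: it was thymus replicate 4 in 45 of them and colon replicate 3 in the fit reported. Its part in the lost calls was not tested. Without the libraries low in their own markers miR-497 in testis was at 0.85. miR-15a was higher in liver (0.93), 1 of 5 where 23.3% were higher, and lower in sciatic nerve (-1.78). The first was lost under other scalings and in 8 fits with 1 library left out, liver replicates 1 and 2 among them. Those 8 fits also include the 3 in which TMM took sciatic nerve replicate 1 as its reference. The second was lost without either sciatic nerve library.

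Heart and skeletal muscle are both striated muscle, and none of the 6 members differed between them by edgeR at an adjusted p under 0.05, where 6.25% of the 480 miRNAs were higher in heart and 6.46% lower. At an unadjusted p under 0.05 there was 1, miR-195, which stood 0.78 ± 0.36 lower in heart (log2 fold change -0.78, adjusted p = 0.150). It read 522, 466, 603, 328 and 438 RPM in heart and 1031, 300, 1098, 572 and 269 RPM in skeletal muscle, and those ranges overlap. It was called lower with the DESeq2 test, at -1.02.

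In thymus, testis and duodenum the level of miR-16 split by library along with the markers of the tissue. In thymus, miR-16 read 23602 and 24209 RPM in replicates 1 and 4, and 3630, 4558 and 4231 RPM in replicates 2, 3 and 5, which were low in miR-181a and miR-181b, the markers used for thymus. Those markers are not particular to thymus: they summed to 163162 to 391097 RPM in brain and 102362 to 131135 RPM in lung. The markers used for duodenum summed to 168642 to 230889 RPM in liver, above their median of 88623 RPM in duodenum. In testis it read 9798, 14946 and 15639 RPM in replicates 1, 4 and 5 and 2968 and 3274 RPM in replicates 2 and 3. Duodenum had 6789 and 7506 RPM in replicates 1 and 2 and 3542, 2308 and 4141 RPM in replicates 3, 4 and 5. In these 3 tissues every library low in its own markers was below every other one in miR-16. Skeletal muscle did not split that way, since its low replicate 4 had 4087 RPM of miR-16, above replicate 2 (2940 RPM) and replicate 5 (1115 RPM). miR-195 did not split that way in any of these tissues. In thymus the low replicate 5 was highest at 1124 RPM and replicate 4 lowest at 147 RPM, in testis the low replicate 2 (602 RPM) was above replicate 4 (556 RPM), and in duodenum the low replicate 5 (849 RPM) was above replicate 2 (790 RPM). Nor did miR-15b in duodenum, where the low replicate 5 had 230.3 RPM and replicate 1 had 221 RPM. Without the 9 libraries miR-15b in thymus moved from 1.27 to 2.21 in log2 fold change, and in testis from 0.71 to 1.06, with both calls kept. The study reports that thymus varied most in the share of mapped reads, and proposes that uneven sampling of the tissue could play a part. What the libraries low in markers hold was not tested.

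**Figure D3:**
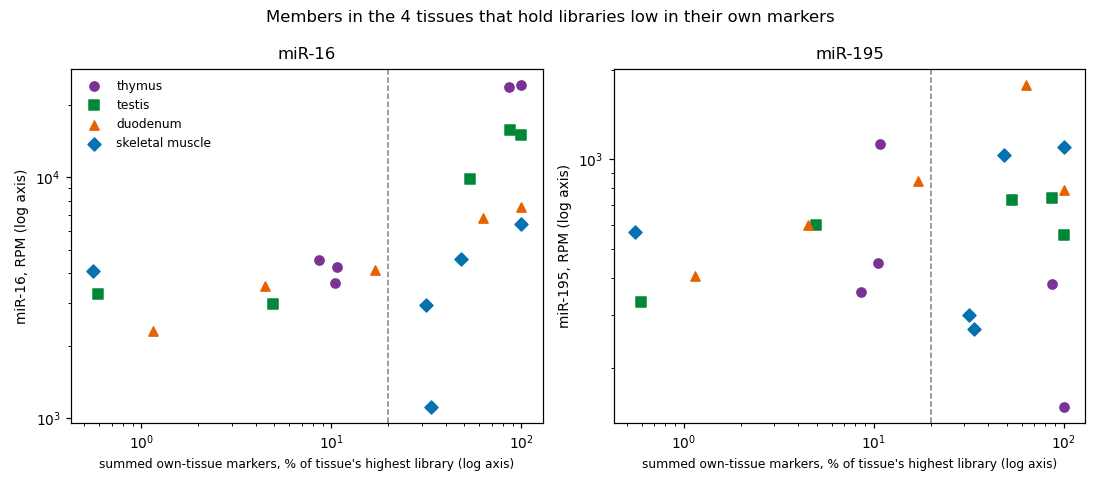
RPM of miR-16 (left) and miR-195 (right) against the summed markers of the library's own tissue, as a percent of the highest library of that tissue, in thymus, testis, duodenum and skeletal muscle. Both axes are logarithmic, and the dashed line marks 20%. In thymus the 3 libraries left of the line have 3630 to 4558 RPM of miR-16 and the 2 right of it 23602 and 24209 RPM.

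Ratios between members of 1 library do not depend on how libraries are scaled. They were taken as log2 with 0.5 added to each count, and each tissue was compared with all other samples by an exact rank-sum test over 64 tests (4 ratios in 16 tissues). The 2 members of the miR-195 and miR-497 cluster did not keep 1 ratio. Over all samples with at least 10 reads the median of miR-195 to miR-497 was 1.06 in log2. In bone marrow it was 2.80, 4.06, 2.90, 3.57 and 3.33, above every other library (mean 3.33 ± 0.51, SD, n = 5, adjusted p = 2.47e-06, exact rank-sum test). In plasma the 4 libraries with enough reads stood at -1.54, -1.70, -1.92 and -3.43, below every other library (mean -2.15 ± 0.87, SD, n = 4, adjusted p = 2.63e-05, exact rank-sum test). Pancreas was lower, with a mean of -0.34 ± 0.25 (SD, n = 5, adjusted p = 0.00166, exact rank-sum test). Duodenum was higher at 2.30 and testis lower at 0.24, and neither passed without the libraries low in their own markers (adjusted p = 0.375 and 0.171, exact rank-sum test). Duodenum was also lost without its replicate 5, and testis in most fits with 1 library left out.

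The ratio of miR-15a to miR-15b compares the 2 clusters that hold miR-16. It was 3.04, 2.62, 3.14, 3.05 and 2.93 in plasma (mean 2.95 ± 0.20, SD, n = 5, adjusted p = 5.82e-05, exact rank-sum test) against a median of 0.66 over all libraries. Liver was also higher, at 2.10, 2.84, 2.48, 1.49 and 2.03 (adjusted p = 0.0148, exact rank-sum test). Lung was lower, at 0.18, -0.77, 0.05, -1.43 and -1.71 (adjusted p = 0.00774, exact rank-sum test), and so was testis with a mean of -0.36 (adjusted p = 0.0363, exact rank-sum test), which was lost without testis replicate 1, 2, 4 or 5. Brain replicate 3 was the highest library at 4.12, and its 4 group mates lay between 0.59 and 1.42.

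The ratio of miR-16 to miR-16-3p pools mature miR-16 from both of its genes. It leaves out hsa-miR-16-1-3p, a 3p arm counted apart with at most 5.29 RPM. This ratio was lowest in plasma, at 7.48, 8.11, 7.82, 8.01 and 8.02, below every library of another tissue (mean 7.89 ± 0.25, SD, n = 5, adjusted p = 2.47e-06, exact rank-sum test). The lowest library elsewhere was at 8.58 and the median over all was 10.56. Brain was higher with a mean of 11.41 (adjusted p = 0.0429, exact rank-sum test), which was lost without any 1 of its 5 libraries. Sciatic nerve, with 0 reads of miR-16-3p, gave 13.26 and 13.68, which depend on the 0.5 added. The ratio of the miR-195 and miR-497 pair to the other 3 was -11.14, -9.45, -9.54, -8.97 and -10.14 in plasma (adjusted p = 2.47e-06, exact rank-sum test), below every other library, the nearest of which was at -6.97. Lung (mean -1.97) and skeletal muscle (mean -2.12) were higher and pancreas (mean -4.37) lower. The call in lung was lost without lung replicate 5 (adjusted p = 0.0544, exact rank-sum test) and that in skeletal muscle without replicate 1, 3 or 5.

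**Figure D4:**
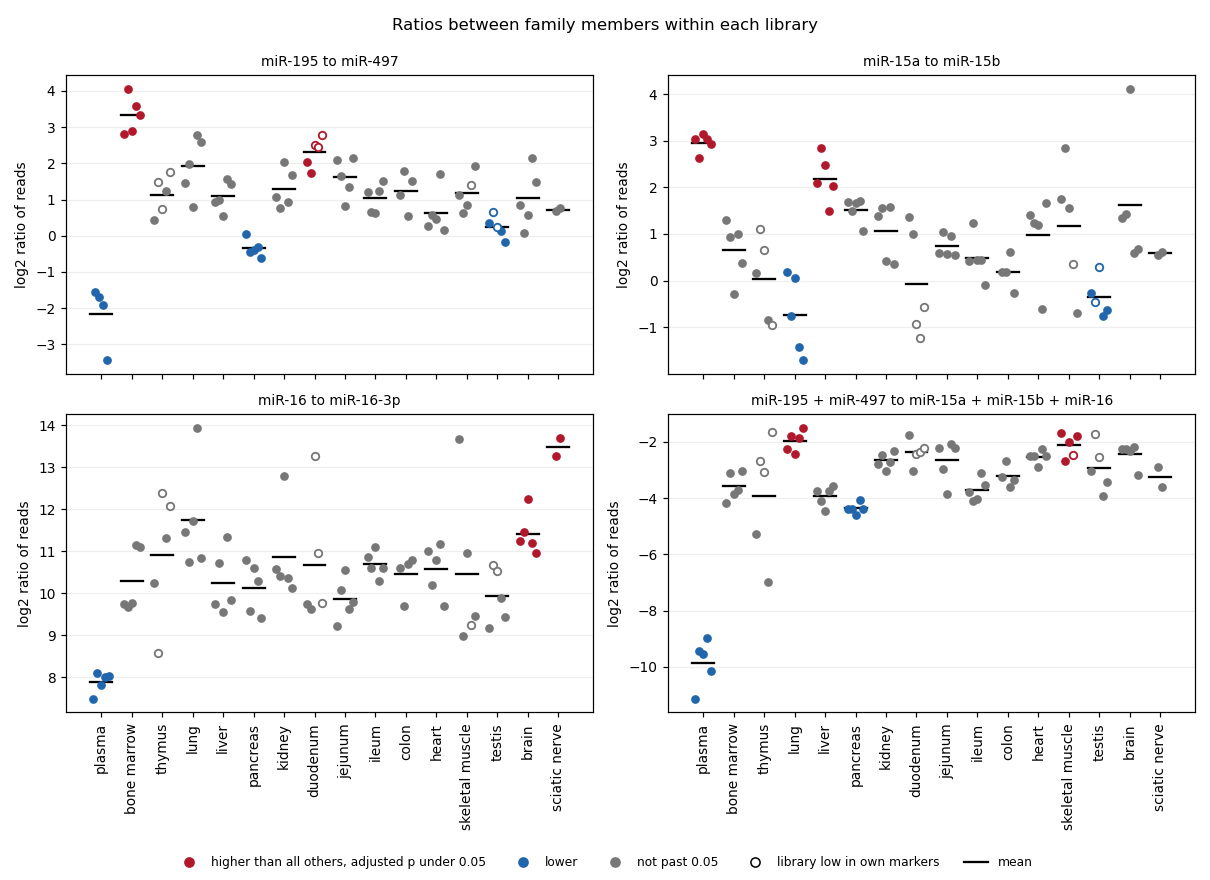
Log2 ratios of reads between family members within each library, by tissue, with the mean as a line. Red marks tissues higher and blue tissues lower than all other samples at an adjusted p under 0.05, and open circles libraries low in their own markers. Plasma is the lowest tissue in 3 ratios and the highest in miR-15a to miR-15b.

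Across the 16 tissue means of log2(RPM + 1) the members of a cluster were not always the closest to each other. These correlations describe 16 points that share library scaling. Pearson's r was 0.92 between miR-15a and miR-16, 0.77 between miR-15b and miR-16, 0.64 between miR-15a and miR-15b, and 0.82 between miR-195 and miR-497. The last was 0.50 over the 15 tissues without plasma. Between miR-16 and miR-195 r was -0.32 with plasma and 0.53 without it, and between miR-15b and miR-195 it was 0.10 with plasma and 0.61 without it, above that of miR-195 with miR-497. Of the 266 highly expressed miRNAs, those most like miR-15a were miR-93 (r = 0.95), miR-16-3p (0.94) and miR-16 (0.92), and those most like miR-16 were miR-93 (0.93), miR-15a (0.92) and hsa-miR-106b-3p (0.90). miR-15b was most like miR-106a (0.89), miR-20a (0.78) and miR-16 (0.77). For miR-16-3p they were miR-15a (0.94), miR-339 (0.91) and miR-93 (0.90). All these lists include plasma, and miR-16-3p counts as highly expressed through plasma alone. Over the 15 tissues without plasma, r between miR-15a and miR-16-3p was 0.86. miR-195 was most like miR-26a (0.84), miR-497 (0.82) and let-7a (0.79), and miR-497 most like miR-195 (0.82), miR-151 (0.81) and let-7e (0.80).

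miR-16 is often used to normalize other miRNAs, so its spread over tissues was compared with that of other highly expressed miRNAs. Its SD of log2(RPM + 1) over 76 libraries was 1.12, the 37th lowest of 266, and its coefficient of variation was 8.72%, the 15th lowest, where the median miRNA had an SD of 1.83. The coefficient is taken on the log2 values, so a high mean level lowers it. For ubiquitous miRNAs the study asks for a coefficient under 10% and an SD no higher than 1. Over the 76 libraries miR-16 met the first limit and not the second. The SD of its 16 tissue means was 0.94, which is under the second limit, and the pooled SD within tissues 0.69. The study does not say whether its SD was taken over samples or tissue means, or on which scale. Whether miR-16 meets the study's limit is therefore not settled here. The study's other reference miRNAs spread less: miR-29a had an SD of 0.93 and miR-186 one of 0.60, the lowest of all 266. Without plasma and bone marrow the SD of miR-16 was 0.92. The other members had SDs of 1.22 (miR-497), 1.28 (miR-15b), 1.39 (miR-15a), 1.73 (miR-16-3p) and 1.83 (miR-195). In solid tissues alone the SD of miR-195 was 1.08.

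The opposite arms of the family were lower than the members they match. hsa-miR-15b-3p read 32.8, 105, 83.6, 74.1 and 70.5 RPM in plasma, and its highest library elsewhere was testis replicate 4 at 77.4 RPM. hsa-miR-15a-3p had reads in 10 libraries and at most 2.07 RPM, and hsa-miR-16-1-3p had reads in 28 and at most 5.29 RPM. miR-503 had reads in 43 libraries and at most 9.11 RPM, and cfa-miR-424, the 3p arm, reached 37.0 RPM in bone marrow replicate 1. hsa-miR-424-5p was not as low: its bone marrow libraries, from 264 to 508 RPM, lay above those of miR-497, from 105 to 175 RPM.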

How the data were processed

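miR-seq libraries of 76 samples were grouped by the tissue in their labels. The authors clipped adaptors, aligned reads to CanFam3.1 with OSA without mismatches, dropped reads with more than 10 genomic locations, and counted reads that overlapped at least 70% of a miRNA locus. They deposited a count for each miRNA and sample, the total on miRNAs, and RPM, the count scaled to that total. The deposited RPM equals count over total to a relative difference of 2.89e-09. Counts of a sample sum to at most 1.16% above its total, and whether those are reads shared by several miRNAs was not tested. miRNAs not listed for a sample were set to 0. One labelled colon sample had no values, and 1 sample name in the table was not assigned; both are not analysed here.

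Counts were tested with edgeR 4.0.16 (TMM, filterByExpr, quasi-likelihood, Benjamini-Hochberg, R 4.3.3) in 1 fit over all tissues, and with DESeq2 1.42.0 as an alternative. Enrichment and ratios used exact rank-sum tests, and neighbours exact permutation tests (Python 3.11.15, scipy 1.17.1). The procedures were tested on simulated data: for plasma, 80% of changes of 2-fold and 100% of those of 4-fold were recovered among 417 miRNAs. That simulation gave all tissues 1 mean profile and 1 dispersion, with changes in both directions in plasma alone. The real make-up of plasma reads was not simulated, so these rates do not cover its effect on scaling. The planned contrasts of miR-16-3p against the mean of all others are not given, as sciatic nerve had 0 reads. No 2 libraries of a tissue agreed within sampling noise. miRNAs named are the members, their opposite arms and relatives, the study's reference miRNAs, markers, and for each member the 3 highly expressed miRNAs (tissue median over 100 RPM) with the highest correlation. Members, lists and rules were chosen with earlier results of these data known. The mature sequences are not used here. Names and gene order came from assembly UU_Cfam_GSD_1.0, with no coordinates converted.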

Additional observations from a re-analysis of the deposited data

Results flagged for a closer look

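Of 90 groups of 4 or 5 libraries tested for a single library far from the rest, 10 had one, where chance gives about 1 in 20. Brain replicate 3 accounted for 3: miR-15a at 881 RPM (the nearest brain library 223), miR-16 at 10726 RPM (nearest 4608) and, in the other direction, miR-15b at 50.6 RPM (nearest 82.7). Plasma replicate 1, with 274790 reads on miRNAs, accounted for 2: miR-16 at 18531 RPM (nearest 36269) and miR-497 at 3.64 RPM from 1 read (nearest 33.2). In skeletal muscle replicate 5, miR-15a was at 19.0 RPM from 6 reads (nearest 145). Heart replicate 4 had 99.5 RPM of miR-497 (nearest 314), and pancreas replicate 4 had 388 RPM of miR-15a (nearest 302). For miR-16-3p, jejunum replicate 1 was at 10.5 RPM from 5 reads (nearest 6.63) and lung replicate 4 at 0 RPM (nearest 3.96). The cause was not tested.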

How the results depend on the processing

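No paired analysis was possible because the labels carry no dog number. No fold change of a called pair reversed under any alternative. Of 38 called folds, 24 kept their call under every other setting run (6 for a tissue against the others, 7 for plasma against bone marrow). The count of members higher across tissues ranged from 16 to 25 and of members lower from 11 to 17 when 1 library was left out. For plasma against bone marrow, members higher fell to 2 by library size only, and members lower came to 2 with DESeq2 size factors, with library size only, with no filter, with the DESeq2 test and in a fit over both tissues only (1 to 2 with 1 library left out, following the TMM reference). Heart against skeletal muscle gained 1 member lower, miR-195, with DESeq2 size factors, the DESeq2 test, the fit over both tissues and the fit without libraries low in own markers, an alternative added after the data were seen. The ratio of miR-195 to miR-497 set 3 tissues apart without those libraries, and 3 to 5 with 1 left out (3 without duodenum replicate 5). Neighbouring pairs were 0 with TMM, 0 with adjustment over 90 pairs and 0 without those libraries, and 0 to 3 with 1 left out. The SD of miR-195 was 1.08 in solid tissues only. Of the 18 nearest miRNAs, 8 were shared with Spearman's correlation. The cause was not tested. Depth limits miR-16-3p most: outside plasma it rests on few reads.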
